A study of Homo sapiens with 18 samples.

Results

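The clustered histone genes were taken as all protein-coding rows of the count table whose symbols begin with HIST1H, HIST2H, HIST3H or HIST4H, which gave 71 of 58735 genes. Another 19 genes with such names but another biotype were kept apart. The 71 comprise 6 linker histone H1 genes, 17 H2A, 18 H2B, 15 H3 and 15 H4 genes. On build hg38, 55 lie in the HIST1 cluster on chromosome 6 between 25726132 and 27893843, and 12 lie in HIST2 on chromosome 1. The HIST3 cluster holds 3 on chromosome 1 between 228424845 and 228460470, and HIST4H4 stands alone on chromosome 12 at 14767999 to 14771131.

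Both groups carried OCI-Ly18-GFP+ cells, a diffuse large B-cell lymphoma line with a fluorescent marker, as subcutaneous tumours in NSG mice, an immunodeficient strain. Both also received CART19, which are T cells carrying an engineered receptor. The CART19-tazemetostat group (mice M_767, M_768 and M_774) was first given tazemetostat, an inhibitor of the histone methyltransferase EZH2, by mouth at 150 mg/kg a day for 14 days from day 3 after implantation. The CART19-vehicle group (mice M_766, M_769 and M_770) was given vehicle instead. Tumours were dissociated 11 days after the infusion and total RNA of sorted GFP+ tumour cells was sequenced. These are tumours of 1 cell line in a host that lacks its own lymphocytes. The sources used here do not give the age and sex of the animals or any dosing beyond the 14 days.

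Each mouse was represented by 3 libraries, A, B and C, whose counts were summed, so that n = 3 mice per group. Mouse totals were 59132193 to 69816184 counts in the tazemetostat group and 55712115 to 66053406 in the vehicle group. Levels are given as CPM, read counts relative to the effective total of each mouse, and fold changes are tazemetostat over vehicle on the log2 scale. B-cell markers were present at a summed 2680 ± 8.84 CPM in tazemetostat and 2730 ± 267 CPM in vehicle mice (SD, n = 3 each), whereas 7 of the 12 T-cell markers were too scarce to be tested and CD3D and CD3G were at 0 in all libraries. The 12 summed to 153 to 189 CPM in tazemetostat and 148 to 187 CPM in vehicle mice, most of it from TRBC2 and CD247, and CD247 was higher without overlap (log2 fold change 0.43, edgeR adjusted p = 0.465). Library C of mouse M_768 stood apart from the other 2 libraries of that mouse, and values without it are given where they matter. In bulk RNA a difference in RNA per cell and a difference in the make-up of the cells cannot be told apart.

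Histones are the proteins around which DNA is wound, with pairs of H2A, H2B, H3 and H4 forming the core of the nucleosome and H1 sealing the linker DNA. The clustered genes are known for being transcribed in S phase, when new DNA must be packaged, and most of their messages end in a stem-loop bound by SLBP rather than in a poly(A) tail. Some of them are also known to give longer, polyadenylated messages in cells that have stopped dividing or are differentiating. EZH2, which tazemetostat inhibits, methylates lysine on the tail of the H3 protein.

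The sequences that mark these genes are shown for members on which the results turn. The stem-loop was found by its consensus in the transcripts of 32 of the 71 members (45.1% of genes), in the basic set of GENCODE release 29. Over the full release it was found in 0.103% of 206694 transcripts, which is a share per transcript and not per gene. For 34 members this basic set holds the coding sequence only, so the stem-loop could not be looked for there. HIST1H3J is among these, although its deposited length, 775 bases, exceeds its longest basic transcript, 411 bases. The following 26-base stretches hold the stem-loop in capitals, in the sense direction.
HIST1H2BG, chr6:26216213-26216238, minus strand: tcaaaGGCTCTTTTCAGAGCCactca
HIST1H2AE, chr6:26217412-26217437, plus strand: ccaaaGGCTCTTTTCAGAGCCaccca
HIST2H2BE, chr1:149886183-149886208, minus strand: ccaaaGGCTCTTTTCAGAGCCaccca
HIST3H2A, chr1:228457364-228457389, minus strand: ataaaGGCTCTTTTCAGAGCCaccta
HIST1H2BF, chr6:26199963-26199988, plus strand: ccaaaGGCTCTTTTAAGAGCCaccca
HIST1H4I, chr6:27139649-27139674, plus strand: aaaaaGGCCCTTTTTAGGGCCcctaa
In 23 members an annotated transcript ran on for more than 100 bases past the stem-loop, as by 1059 bases in HIST1H2BG and 1729 bases in HIST2H2BE. In 9 members it ended within 100 bases, as in HIST1H2AE, where it ran on for 51 bases.

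Promoters from RefSeq (GRCh38.p14, up to 250 bases upstream of the start) were matched for 61 of the 71 genes, as 60 distinct windows, since HIST1H3D and HIST1H2AD have the same one. They lie at the RefSeq starts, which differ from the GENCODE starts for some members. The octamer ATTTGCAT, a binding sequence of OCT factors that is known from H2B promoters, was found on either strand in 14 of 18 H2B and 11 of 14 H2A promoters, in 1 of 10 H3 promoters, that of HIST1H3D, which is the window of HIST1H2AD, and in none of the 6 H1 and 13 H4 promoters. It occurred in 1.63% of all 35116 RefSeq promoters. Windows of neighbouring H2A and H2B genes on opposite strands can overlap, so the same octamer can be counted for both genes. This was so for HIST1H2BG with HIST1H2AE, HIST1H2BC with HIST1H2AC, and HIST2H2BE with HIST2H2AC, among others. The promoter counts are therefore not counts of separate sites. CCAAT occurred in 51 of the 61 (83.6%, against 32.01% of all promoters), TATAAA in 40 (65.6%, against 10.72%), and the H1 box AAACACA in 6 of 6 H1 promoters and no other member (against 4.82% of all). The hits did not overlap each other in the sequences printed here, apart from opposite-strand hits of TATAAA in HIST1H2BK. The 250 bases upstream of 4 members follow, with CCAAT on either strand in capitals, together with the octamer in the H2B genes and the H1 box in HIST1H1C.
HIST1H2BG, chr6:26216689-26216938, minus strand: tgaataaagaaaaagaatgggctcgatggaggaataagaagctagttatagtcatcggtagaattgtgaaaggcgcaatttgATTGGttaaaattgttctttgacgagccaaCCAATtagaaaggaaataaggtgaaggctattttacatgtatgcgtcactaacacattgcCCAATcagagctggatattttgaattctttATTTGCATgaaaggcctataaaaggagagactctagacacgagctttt
HIST2H2BE, chr1:149886683-149886932, minus strand: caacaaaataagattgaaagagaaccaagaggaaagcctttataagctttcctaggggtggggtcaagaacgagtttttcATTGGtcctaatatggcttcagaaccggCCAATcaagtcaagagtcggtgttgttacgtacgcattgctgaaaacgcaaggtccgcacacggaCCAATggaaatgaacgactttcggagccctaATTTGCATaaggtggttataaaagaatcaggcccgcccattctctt
HIST1H2BK, chr6:27146859-27147108, minus strand: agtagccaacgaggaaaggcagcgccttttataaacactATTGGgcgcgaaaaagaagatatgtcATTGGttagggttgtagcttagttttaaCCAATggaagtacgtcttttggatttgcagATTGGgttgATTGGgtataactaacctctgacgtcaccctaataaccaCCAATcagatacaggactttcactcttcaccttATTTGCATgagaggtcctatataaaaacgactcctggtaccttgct
HIST1H1C, chr6:26056471-26056720, minus strand: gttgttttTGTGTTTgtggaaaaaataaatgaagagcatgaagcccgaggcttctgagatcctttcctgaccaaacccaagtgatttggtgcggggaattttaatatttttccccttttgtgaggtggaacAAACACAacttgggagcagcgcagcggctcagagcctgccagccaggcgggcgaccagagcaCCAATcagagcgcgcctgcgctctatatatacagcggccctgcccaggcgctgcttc
In the 3 H2B promoters the octamer began 48, 46 and 46 bases upstream of the start in HIST1H2BG, HIST2H2BE and HIST1H2BK.

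Summed over all 71 genes, the clustered histones were higher after tazemetostat in every mouse. The sum was 297, 283 and 299 CPM in tazemetostat mice M_767, M_768 and M_774, against 228, 231 and 219 CPM in vehicle mice M_766, M_769 and M_770. The means were 293 ± 8.63 CPM in tazemetostat and 226 ± 6.22 CPM in vehicle mice (SD, n = 3 each), a ratio of 1.3, and the groups did not overlap. The ratio was 1.27 without library C of mouse M_768. The sum rested on few genes, with the top 3 members by mean CPM holding 37.6% and the top 10 holding 68.6% of it.

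All 5 classes were higher after tazemetostat, H1 and H3 by the larger ratios and H4 by the smallest. The H1 sum was 59.1, 61.0 and 64.9 CPM in tazemetostat and 46.5, 40.9 and 46.2 CPM in vehicle mice (ratio 1.39), and the H2A sum was 56.1, 59.8 and 58.8 CPM in tazemetostat against 47.4, 45.7 and 39.2 CPM in vehicle mice (ratio 1.32). For H2B, the class with the highest sum, the mice had 135, 117 and 131 CPM in tazemetostat and 96.0, 107 and 98.8 CPM in vehicle (ratio 1.27). The H3 genes summed to 19.1, 19.0 and 18.6 CPM in tazemetostat and 13.4, 14.8 and 13.3 CPM in vehicle (ratio 1.37), and the H4 genes to 27.7, 26.3 and 26.0 CPM in tazemetostat and 25.1, 22.9 and 21.7 CPM in vehicle (ratio 1.15). In none of the 5 classes did the groups overlap. Without library C of M_768, and scaled to library totals, the H4 sum of that mouse was 24.5 CPM, under the highest vehicle mouse at 24.6 CPM, while the other 4 classes remained apart. The H1 difference was mostly that of 1 gene: without HIST1H1C, the other 5 H1 genes summed to 10.5, 10.9 and 9.06 CPM in tazemetostat and 12, 8.24 and 7.35 CPM in vehicle, and the groups overlapped.

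**Figure D1:**
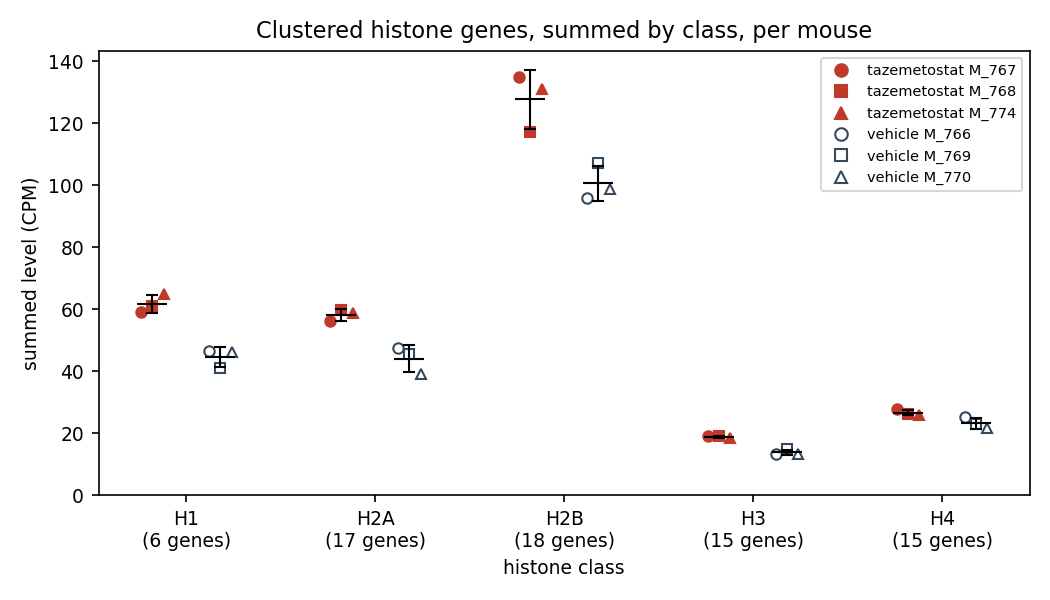
Summed CPM of the members of each histone class per mouse, tazemetostat (filled) left of vehicle (open), with bars for the mean and SD of 3 mice. In each of the 5 classes the tazemetostat mice lie above the vehicle mice, most narrowly for H4 (26.0 CPM at the lowest tazemetostat and 25.1 CPM at the highest vehicle mouse).

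Of the 71 members, 8 had 0 counts in all 18 libraries, and 51 had enough counts to be tested. Those 51 passed a filter on low counts that also depends on the level within a group. By edgeR's quasi-likelihood test with Benjamini-Hochberg adjustment over 20301 genes, 0 of the 51 passed an adjusted p of 0.05 in either direction, where 0.0345% of all genes tested did (0.0197% higher and 0.0148% lower). The smallest adjusted p of a member was 0.17. By edgeR, 20 members (39.2%) were higher at an unadjusted p under 0.05, against 3.34% of all genes tested, and 0 were lower, against 3.21%. In 22 members (43.1%) every tazemetostat mouse was above every vehicle mouse, as in 6.59% of all genes, and in 0 was it below, against 6.0% of all genes. DESeq2 called 7 members higher and 0 lower at an adjusted p under 0.05, against 0.469% and 0.207% of the genes to which it gave an adjusted p. The 7 were HIST1H1C, HIST1H2AE, HIST1H2BG, HIST1H2BJ, HIST2H2BE, HIST2H2BF and HIST2H3D. The first 6 of these were also called by edgeR without the low-count filter and by both fits on the 18 separate libraries, which called 6 members each. Over all genes, these fits called 0.443% higher without the filter, 0.837% on the 18 libraries and 0.759% with the library letter added as a block.

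The log2 fold change was above 0 in 42 of the 51 tested members (82.4%, against 48.2% of all genes tested), with a median of 0.31 against -0.01. Members ranged from -0.36 to 0.88. By class, the median was 0.37 in H1 (3 of 4 above 0), 0.25 in H2A (12 of 13), 0.37 in H2B (12 of 15), 0.40 in H3 (7 of 8) and 0.12 in H4 (8 of 11). By cluster, it was 0.28 in HIST1 (33 of 40 above 0), 0.37 in HIST2 (6 of 8) and 0.38 in HIST3 (2 of 2), and HIST4H4 was at 0.12. The median over all 51 was 0.25 without library C of mouse M_768, with 17 members, all of them among the 20, higher at an edgeR unadjusted p under 0.05 (4.15% of all genes in that fit). In the remaining libraries, scaled to library totals, 20 members were higher without overlap (9.01% of all genes tested), of which 18 were among the 22.

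**Figure D2:**
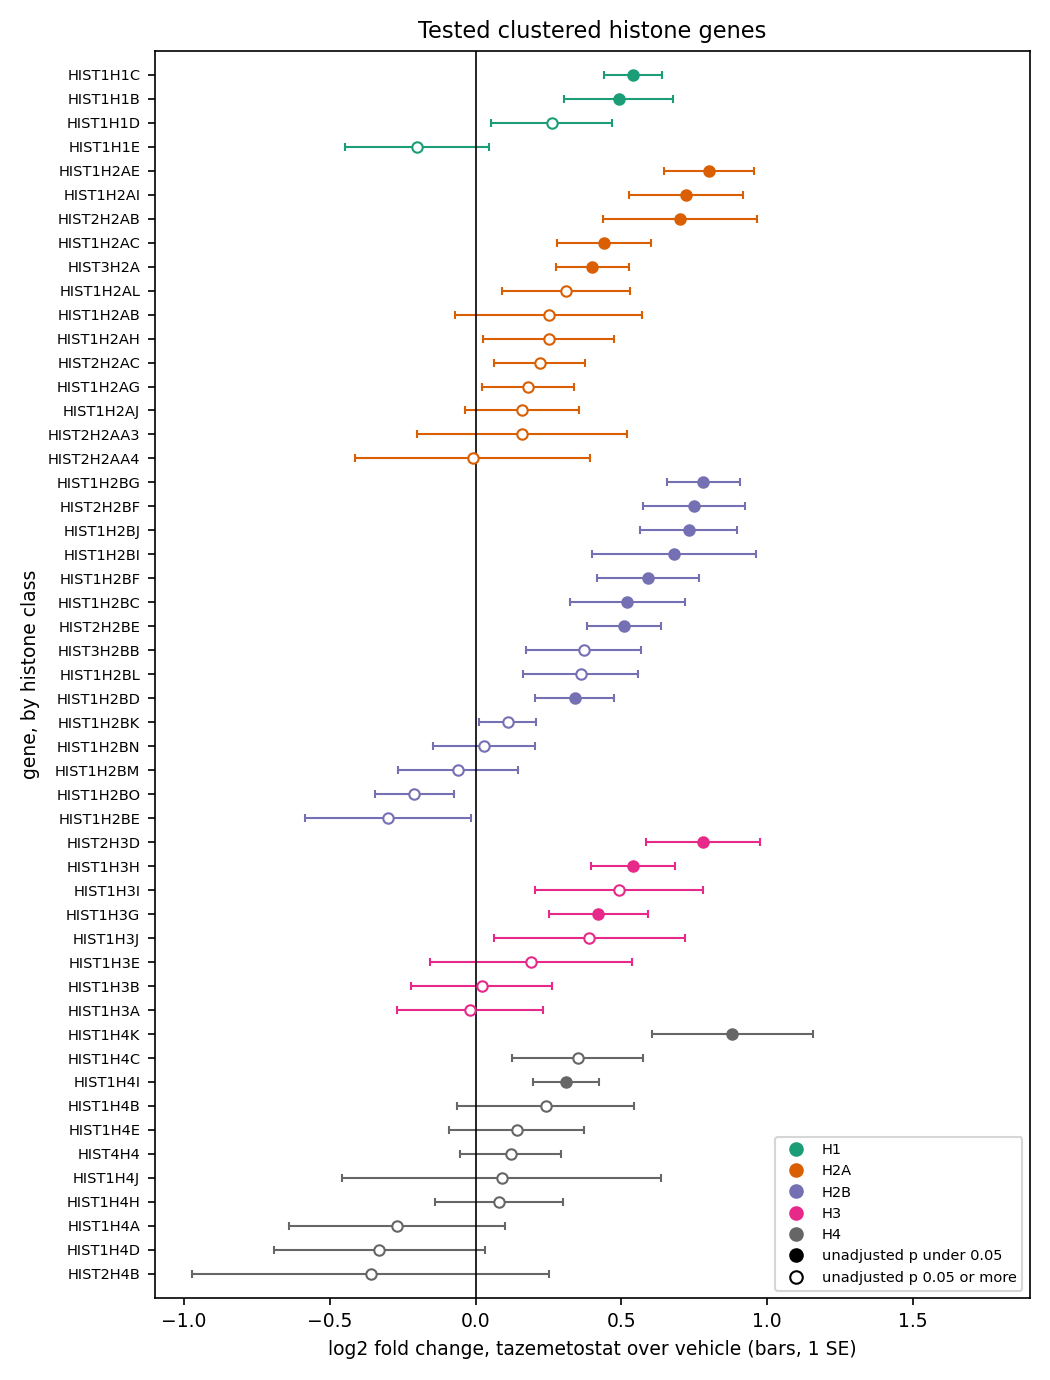
Log2 fold change (tazemetostat over vehicle) with 1 SE for the 51 tested members, sorted within histone class, filled where edgeR's unadjusted p was under 0.05. The 20 filled points all lie right of 0, between 0.31 for HIST1H4I and 0.88 for HIST1H4K.

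Among the linker histones, HIST1H1C, which encodes a somatic H1 subtype, had the highest level per length of any member, at 67.6 CPM per kilobase. Levels per length use the deposited gene lengths, so a gene annotated by its coding sequence only, such as HIST1H1C (642 bases) or HIST1H2BK (381 bases), ranks higher than one with a long annotated transcript, such as HIST2H2BE (2194 bases), at the same count. HIST1H1C had 48.6, 50.1 and 55.8 CPM in tazemetostat and 34.5, 32.7 and 38.8 CPM in vehicle mice, a log2 fold change of 0.54 (SE 0.0998, edgeR adjusted p = 0.219). The lowest tazemetostat mouse was well above the highest vehicle mouse. Within mouse M_768, HIST1H1C stood at 75.2 CPM in library C, against 39.6 and 43.7 CPM in libraries A and B. HIST1H1B, another somatic H1 subtype, had 3.28, 4.34 and 3.30 CPM in tazemetostat and 2.99, 2.51 and 2.28 CPM in vehicle (log2 fold change 0.49, edgeR adjusted p = 0.671). HIST1H1E was the 1 tested H1 gene with a negative value, -0.20 (SE 0.247), and its groups overlapped.

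The H2A gene HIST1H2AE had 5.39, 5.41 and 4.93 CPM in tazemetostat and 2.62, 3.16 and 3.24 CPM in vehicle mice. Its log2 fold change was 0.80 (SE 0.155, edgeR adjusted p = 0.219), and the groups were far apart. HIST3H2A, in the small HIST3 cluster, was the H2A gene with the highest level per length (21.5 CPM per kilobase). It had 20.9, 22.2 and 22.6 CPM in tazemetostat and 17.2, 18.9 and 13.7 CPM in vehicle (0.40, SE 0.126, edgeR adjusted p = 0.543). Within mouse M_768, HIST3H2A stood at 31.6 CPM in library C. Libraries A and B had 18.3 and 19.8 CPM, close to the 18.9 CPM of vehicle mouse M_769. HIST1H2AI had 2.27, 2.41 and 2.41 CPM in tazemetostat and 1.17, 1.64 and 1.48 CPM in vehicle (0.72, SE 0.195). However, 62.3% of its 50-base stretches occur in another gene, mostly HIST1H2AJ, which was at 0.16. HIST1H2AC and HIST2H2AB, at log2 fold changes of 0.44 and 0.70, also did not overlap, though HIST1H2AC was narrowly apart, with 11.3 CPM at both the lowest tazemetostat and the highest vehicle mouse when rounded. The remaining 8 tested H2A genes lay between -0.01 and 0.31, among them HIST2H2AC, with 3.28, 3.84 and 3.39 CPM in tazemetostat and 2.96, 3.08 and 2.97 CPM in vehicle (0.22, edgeR adjusted p = 0.868). That value was 0.08 without library C of M_768, which had 6.74 CPM, against 2.26 and 3.55 CPM in libraries A and B.

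The H2B genes included both the member with the smallest p and abundant members with little difference. HIST1H2BG had 14.0, 13.2 and 13.3 CPM in tazemetostat and 6.96, 8.84 and 7.87 CPM in vehicle mice, a log2 fold change of 0.78 (SE 0.125, edgeR adjusted p = 0.17). HIST2H2BE, known for a long polyadenylated message, had 38.7, 31.3 and 39.2 CPM in tazemetostat and 22.6, 29.5 and 24.4 CPM in vehicle (0.51, SE 0.127, edgeR adjusted p = 0.381). Mouse M_768 was close to vehicle mouse M_769 there, and the other 2 tazemetostat mice were clearly higher. HIST2H2BF, its relative in the same cluster, had 8.74, 5.98 and 6.96 CPM in tazemetostat and 3.77, 4.36 and 4.79 CPM in vehicle (0.75, SE 0.175, edgeR adjusted p = 0.35). HIST1H2BJ had 6.36, 4.76 and 6.03 CPM in tazemetostat and 3.11, 3.79 and 3.44 CPM in vehicle (0.73, SE 0.167, edgeR adjusted p = 0.324). In both genes the groups were apart. HIST1H2BF, HIST1H2BC and HIST1H2BI followed at 0.59, 0.52 and 0.68, also without overlap, and HIST1H2BD at 0.34, where vehicle mouse M_766 (8.84 CPM) was above tazemetostat mouse M_767 (8.78 CPM).

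HIST1H2BK, the H2B gene with the highest level per length (61.1 CPM per kilobase), had 24.4, 21.9 and 26.2 CPM in tazemetostat and 22, 22.8 and 22.5 CPM in vehicle. Its log2 fold change was 0.11 (SE 0.0983, edgeR adjusted p = 0.911), and its groups overlapped. HIST1H2BO, next among the H2B genes at 32.1 CPM per kilobase, had 11.5, 12.5 and 9.89 CPM in tazemetostat and 11.4, 13.7 and 14.3 CPM in vehicle (-0.21, SE 0.135, edgeR adjusted p = 0.845). The promoter of HIST1H2BK, printed above, holds the octamer at the same distance as that of HIST2H2BE, and CCAAT as well. Much of HIST1H2BK is shared with other genes: 74.1% of its 50-base stretches occur in another annotated gene, so its reads may be split or lost. HIST1H2BG, HIST1H2AE and HIST1H1C share no such stretch with another gene. Over all members, 30 shared none and 17 shared more than 50% of theirs, 10 of those 17 being tested. Among tested members, exons also overlapped another gene on the other strand in HIST1H2BE (28.2% of its exon bases), HIST2H4B (9.0%), HIST1H2BN (7.2%), HIST2H2AB (6.9%) and HIST2H2BF (5.5%), so that their reads are uncertain if strand was not used. On the same strand, among tested members, HIST1H3J shared 44.6% with HIST1H2AM and HIST1H2AL 1.0% with HIST1H2BN. Some members not tested overlapped more. HIST1H3D (100%) and HIST2H3PS2 (99.5%) did so on the same strand, and HIST1H2AK (100%) on the other. These had 0 counts, which are uncertain for the same reason.

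**Figure D3:**
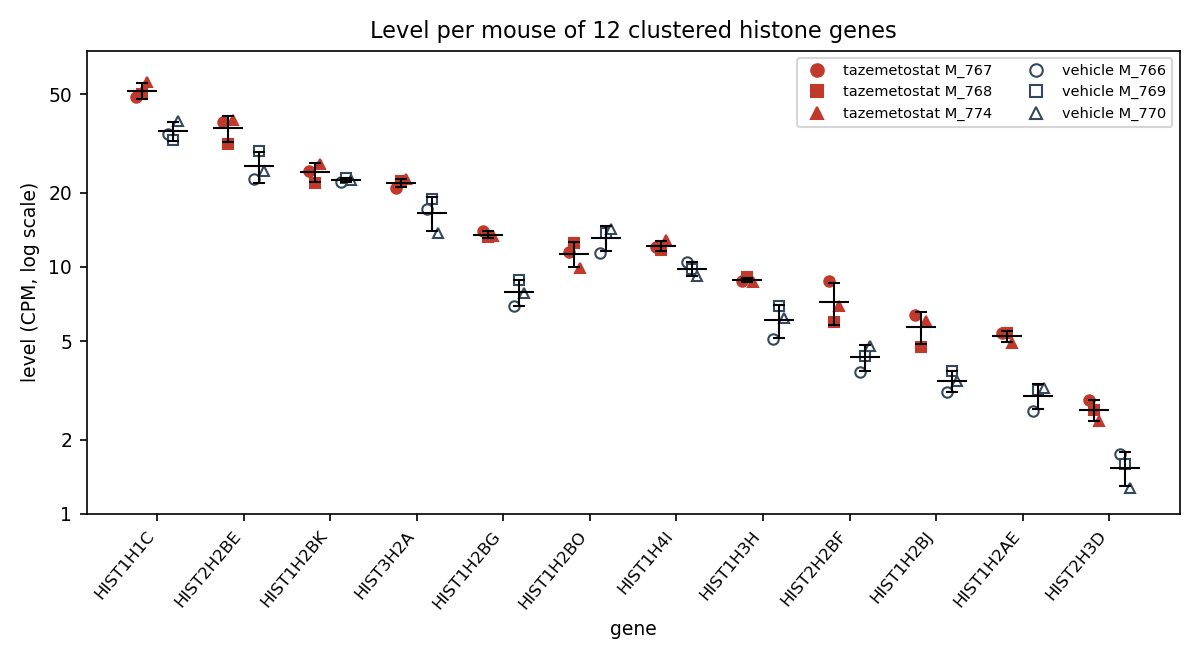
CPM per mouse on a log scale for 12 members, tazemetostat (filled) left of vehicle (open), with bars for the mean and SD of 3 mice. HIST1H2BG and HIST1H2AE are apart between the groups, while HIST1H2BK and HIST1H2BO overlap between the groups.

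In the H3 class, HIST1H3H had the highest level per length (6.04 CPM per kilobase). It had 8.78, 9.06 and 8.71 CPM in tazemetostat and 5.10, 6.97 and 6.21 CPM in vehicle mice (0.54, SE 0.144, edgeR adjusted p = 0.445). HIST2H3D had 2.90, 2.64 and 2.37 CPM in tazemetostat and 1.74, 1.59 and 1.27 CPM in vehicle (0.78, SE 0.195, edgeR adjusted p = 0.399), but 80.4% of its 50-base stretches occur in another gene. HIST1H3G stood at 0.42 (SE 0.17). In all 3 the groups did not overlap. Of the 15 H3 genes only 8 could be tested, and 5 of those 8 had an edgeR p of 0.05 or more.

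The H4 genes, nearly all of which encode the same protein, had the smallest ratio of sums. HIST1H4I, the H4 gene with the highest level per length (8.5 CPM per kilobase), had 12, 11.7 and 12.8 CPM in tazemetostat and 10.5, 9.81 and 9.19 CPM in vehicle mice (0.31, SE 0.114, edgeR adjusted p = 0.65). Within mouse M_768, HIST1H4I stood at 16.5 CPM in library C. Libraries A and B had 9.83 and 10.3 CPM, under the 10.5 CPM of vehicle mouse M_766. HIST1H4K, with the highest fold change of any member, was scarce at 0.619, 0.656 and 0.559 CPM in tazemetostat and 0.323, 0.325 and 0.344 CPM in vehicle (0.88, SE 0.277, edgeR adjusted p = 0.531). However, 100% of its 50-base stretches occur in another gene, mainly HIST1H4J. HIST1H4J was at 0.09 (SE 0.547), and its groups overlapped. The lowest values among tested members were those of HIST2H4B (-0.36, SE 0.613), HIST1H4D (-0.33, SE 0.362), the H2B gene HIST1H2BE (-0.30, SE 0.284) and HIST1H4A (-0.27, SE 0.371). All 4 overlapped between the groups and averaged under 1 CPM in either group.

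The 18 libraries were also compared one by one, as a description, since the libraries of a mouse are not replicates. In 5 members, HIST1H1C, HIST1H2AE, HIST1H2BG, HIST1H2BJ and HIST2H2BF, all 9 tazemetostat libraries were above all 9 vehicle libraries, and in 0 members were all below. Over all genes tested this held for 0.739% above and 0.458% below. HIST1H2BG ranged from 11.2 over a median of 13.8 to 18.3 CPM in the tazemetostat libraries, and from 5.95 over a median of 8.56 to 9.22 CPM in the vehicle libraries. In the others the lowest tazemetostat and the highest vehicle library were close. These were 39.6 and 39.3 CPM in HIST1H1C and 4.53 and 4.31 CPM in HIST1H2AE. In HIST1H2BJ they were 4.42 and 4.23 CPM, and in HIST2H2BF 5.47 and 5.36 CPM. Of 22 members with at least 1000 counts, 18 were higher in library C of M_768 than in the mean of its libraries A and B.

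Many H2A and H2B genes are arranged head to head and share a promoter region. Members in head-to-head order with starts under 1000 bases apart formed 12 pairs, 11 of an H2A with an H2B gene and 1 of the H3 gene HIST1H3J with HIST1H2BO, which is also paired with HIST1H2AM. Both genes were tested in 9 pairs, 8 of them H2A with H2B. HIST1H2BG and HIST1H2AE, whose starts lie 283 bases apart, had log2 fold changes of 0.78 and 0.80, and the HIST1H2BG sequence printed above covers most of the region between them. HIST1H2BC and HIST1H2AC had 0.52 and 0.44, and HIST3H2A and HIST3H2BB 0.40 and 0.37. In other pairs the partners were less alike: HIST1H2BJ had 0.73 (SE 0.167) and HIST1H2AG 0.18 (SE 0.157), HIST2H2BE 0.51 and HIST2H2AC 0.22 (0.51 and 0.08 without library C of M_768), and HIST1H2BL 0.36 and HIST1H2AI 0.72. HIST1H2AJ and HIST1H2BM lay on either side of 0, at 0.16 (SE 0.195) and -0.06 (SE 0.206). So did HIST1H3J and HIST1H2BO, at 0.39 (SE 0.328) and -0.21 (SE 0.135). HIST1H3J shares 44.6% of its exon bases with HIST1H2AM on the same strand, so its reads are uncertain and this pair is not separate from that of HIST1H2AM. The difference within pairs was not tested. Among the H2A and H2B genes, the 19 tested members with the octamer had a median of 0.44 and the 6 without it 0.36, ranging from -0.30 to 0.80 and from 0.03 to 0.72. Partners that share the same octamer site, such as HIST1H2BG and HIST1H2AE, each count as a member here.

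**Figure D4:**
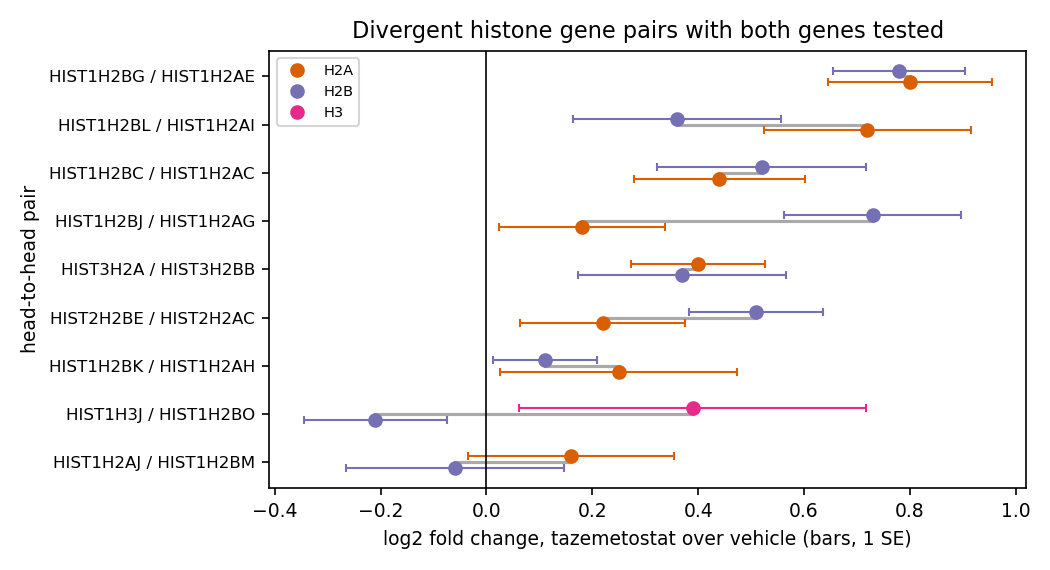
Log2 fold change (tazemetostat over vehicle) with 1 SE of both genes in the 9 head-to-head pairs in which both were tested. HIST1H2BG and HIST1H2AE lie side by side at 0.78 and 0.80, while HIST1H2BJ and HIST1H2AG lie at 0.73 and 0.18.

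Members with a known polyadenylated message were all above 0, as were 82.4% of all tested members. These 6 genes, HIST1H1C, HIST1H2AC, HIST1H2BD, HIST1H2BJ, HIST1H2BK and HIST2H2BE, had a median log2 fold change of 0.48, and 5 of them were higher at an edgeR unadjusted p under 0.05. The same held for 39.2% of all tested members and 3.34% of all genes tested. Together they had 138, 132 and 151 CPM in tazemetostat and 102, 105 and 104 CPM in vehicle mice, without overlap. Grouped by the annotated end of the transcript, the 19 tested members running past the stem-loop had a median of 0.37 (17 above 0), and the 8 ending at it 0.29 (7 above 0). The 21 annotated by coding sequence only had 0.25 (16 above 0), and the remaining 3 had 0.35 (2 above 0). These groups do not sort members by polyadenylation. HIST1H1C and HIST1H2BK fall under coding sequence only. HIST1H2BD, which also has a transcript without the stem-loop, falls under those ending at it. Whether the libraries were made from poly(A)-selected or rRNA-depleted RNA is not given in the sources used here. The testis genes HIST1H1T, HIST1H2AA, HIST1H2BA and HIST3H3 were not tested: HIST1H2AA and HIST1H2BA had 0 counts, which allows up to 3 counts in all, and the other 2 were under 0.11 CPM in every mouse.

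The histone variants listed as replication-independent, most of which are not limited to S phase and come from single genes elsewhere, were mostly below 0. Of 10 tested, 1 was above 0, none was at an edgeR unadjusted p under 0.05, and the median was -0.09. Their sum was 2480, 2780 and 2580 CPM in tazemetostat and 3010, 2530 and 2470 CPM in vehicle mice. H3F3B, a gene for the replacement histone H3.3, was the 1 above 0, at 582 ± 17.0 CPM in tazemetostat and 510 ± 35.6 CPM in vehicle (SD, n = 3 each, log2 fold change 0.19, edgeR adjusted p = 0.783). H3F3A, the other H3.3 gene, was at -0.19, and CENPA, the H3 variant of centromeres, at -0.18.

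Of 19 tested genes for transcription and processing of histone messages, 9 were above 0, with a median of -0.00. NPAT, the coactivator of clustered histone genes, had 30.6, 25.9 and 31.7 CPM in tazemetostat and 20.6, 25.4 and 25.6 CPM in vehicle mice (0.30, SE 0.118, edgeR adjusted p = 0.684). Its groups did not overlap, but mouse M_768 was close to the vehicle mice. CCNE2, a cyclin whose kinase activates NPAT, was at 0.32 (edgeR adjusted p = 0.688) and CCNE1 at 0.16, while SLBP, the stem-loop binding protein, was at 0.06 (SE 0.096). Of 17 histone chaperones 7 were above 0, with a median of -0.01, and CHAF1A, a subunit of the complex that deposits new H3 and H4 behind the fork, was at -0.16 (edgeR adjusted p = 0.8).

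Genes of DNA replication were mostly below 0 as well. Of 24 tested, 7 were above 0 and 17 below, with a median of -0.06. At an edgeR unadjusted p under 0.05, 2 were lower, as were 3.21% of all genes tested. Their sum was 5080, 5040 and 5050 CPM in tazemetostat and 5330, 5170 and 5510 CPM in vehicle mice, lower without overlap. POLD1, the catalytic subunit of a replicative polymerase, was at -0.25 (edgeR adjusted p = 0.635) and the licensing factor CDT1 at -0.23 (edgeR adjusted p = 0.671). Among 20 mitosis genes 1 was above 0 (median -0.08), and CCNB2, a mitotic cyclin, was at -0.18. CDKN1A, the inhibitor of cyclin-dependent kinases, had 70.5, 69.4 and 80.8 CPM in tazemetostat and 53.1, 50.1 and 31.0 CPM in vehicle (0.72, SE 0.173, edgeR adjusted p = 0.37), and the other 5 tested inhibitors lay between -0.06 and 0.15.

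EZH2 itself had 201, 206 and 217 CPM in tazemetostat and 217, 204 and 199 CPM in vehicle mice (0.01, SE 0.0853). The 11 genes of its complex had a median of 0.01, with EED at 0.22 and EZH1 at -0.21 (edgeR adjusted p = 0.679 and 0.714). Genes known to be induced by tissue dissociation were mostly above 0, as the histones were. Of 23 tested, 21 were above 0, with a median of 0.54, with ATF3 at 0.88, ZFP36 at 0.54 and DUSP1 at 0.96. At an edgeR unadjusted p under 0.05, 12 (52.2%) were higher, against 3.34% of all genes tested. Their sum was 6610, 6770 and 5510 CPM in tazemetostat and 4080, 5060 and 5720 CPM in vehicle mice, which overlapped, and their part in the histone result was not tested.

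**Figure D5:**
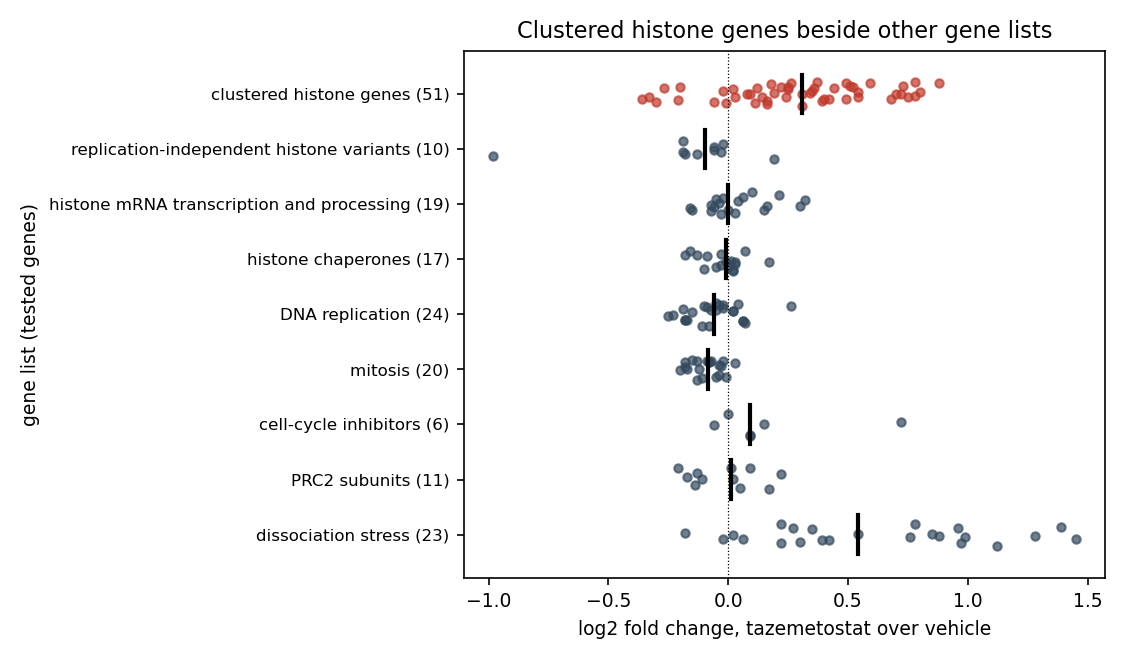
Log2 fold change (tazemetostat over vehicle) of each tested gene, by gene list, with the list's median as a black bar. The clustered histone genes have a median of 0.31, the replication-independent variants -0.09, DNA replication genes -0.06 and dissociation genes 0.54.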

How the data were processed

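The members and all gene lists were chosen with earlier results of these data known. The authors deposited whole-number read counts for 58735 genes in 18 libraries, with no normalization, and gene lengths beside them. Libraries were made with an NEB Next Ultra II kit, per the labels' protocols. The submitters' processing notes name hg38 as the build and list DESeq2, without a role or version. The sources used here do not state the aligner, the counter, or how strand and multi-mapped reads were handled, so near-identical or overlapping histone genes are uncertain. Coordinates of all 71 members equal those of GENCODE release 29, which gave transcripts and exons.

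Libraries of a mouse were summed. Nothing says whether A, B and C came from separate samples of a tumour. Library totals were 16124494 to 26336269. Counting error alone is covered by floors on 0 counts. The test of the counts was edgeR's quasi-likelihood F test (version 4.0.16, R 4.3.3), with TMM scaling, filterByExpr at its minimum of 10, and Benjamini-Hochberg adjustment over 20301 genes at 0.05. CPM use TMM factors. SE is the absolute log2 fold change over the square root of F. Levels per kilobase use the deposited lengths. Libraries of 1 mouse differed beyond sampling noise (chi-square over its degrees of freedom 2.02 to 67.3, at most 4.81 without library C of M_768). Lists are described by counts and medians only, and no list was tested.

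Genes were named by rule: members at an unadjusted p under 0.05 without overlap, the 8 with the highest CPM per kilobase, the 4 lowest fold changes, the top of each class, the polyadenylated and testis lists, and up to 3 genes of each other list by p. Further genes, such as EZH2, SLBP, HIST1H1E, pair partners and members of the lists beyond these, were chosen after their values were seen. Shared sequence was the share of a gene's 50-base stretches found in another GENCODE gene. Alternatives were RLE factors, library totals only, no filter, DESeq2 1.42.0, limma 3.58.1 voom on 18 libraries with mouse as a random effect, with and without the library letter as a block, and leaving out library C of M_768 or each mouse. Counts were simulated over 19922 genes for tazemetostat against vehicle, with 50 genes changed at each of 1.5, 2, 4 and 8-fold. Of these, 68% of those changed 1.5-fold and 100% of those changed 2-fold were recovered, with 10 false among 194 calls. The changed genes were drawn only from genes above a minimum level, and the fit to the real counts made only 7 calls. These rates are therefore not the recovery to be expected for the members.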

Additional observations from a re-analysis of the deposited data

How the results depend on the processing

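Of 13 alternatives, 4 called members higher: 6 without the low-count filter, 7 by DESeq2, 6 with 18 libraries and mouse as a random effect, and 6 with the library letter as a replicate block added. In all 4 the called members included HIST1H1C, HIST1H2AE, HIST1H2BG, HIST1H2BJ, HIST2H2BE and HIST2H2BF. Calls over all genes were 4 higher and 3 lower by edgeR, 163 and 89 without the filter, 86 and 38 by DESeq2, 170 and 86 on 18 libraries, and 154 and 70 with the letter block. Leaving out each mouse gave 0 to 38 higher and 0 to 21 lower over all genes, and 0 called members each time. No alternative called a member lower. Letters did not pair samples: deviations correlated by -0.00409 on average for the same letter and 0.00206 for different letters.

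Across all 13 alternatives, members at an unadjusted p under 0.05 and higher numbered 14 to 23 (1.99% to 5.95% of all genes), and those above 0 numbered 40 to 48. The median over members was 0.25 without library C of M_768 and 0.28 to 0.37 when each mouse was left out. The H3 median was 0.30 without the filter, 0.31 without that library and 0.25 to 0.43 without each mouse. The H2A median was 0.22 to 0.42 and the H2B median 0.33 to 0.49 without each mouse, and the H1 median 0.25 to 0.50. The H4 median, 0.12 with all mice, was 0.25 without M_766, 0.04 without M_768 and 0.05 without M_770. HIST1H4A turned to 0.10 without mouse M_766 (-0.72 to 0.10 without each mouse). At an unadjusted p under 0.05, HIST1H2BO was lower without M_766 (-0.30), and HIST1H3F, under the filter with all mice, without M_767 or M_770 (-2.38 and -1.75). The cause of these shifts was not tested. The 20 members that were not tested had at most 57 counts over the 18 libraries.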

Other observations

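Of the 19 genes with clustered histone names but another biotype, 4 had enough counts to be tested, and all 4 had log2 fold changes above 0 (median 0.17) with overlapping groups. The most abundant, HIST2H2BC, a transcribed pseudogene on chromosome 1 at 149844498 to 149850937, had 24.5, 21.4 and 28.6 CPM in tazemetostat and 19.2, 31.4 and 22 CPM in vehicle mice (log2 fold change 0.04, SE 0.175). HIST2H2BD, a transcribed pseudogene beside it, had 8.36, 8.03 and 8.91 CPM in tazemetostat and 5.70, 8.97 and 7.53 CPM in vehicle (0.19, SE 0.167). HIST1H4PS1, an H4 pseudogene on chromosome 6, was too scarce to be tested but did not overlap between the groups, at 0.0985, 0.274 and 0.119 CPM in tazemetostat and 0.0154, 0.0684 and 0.0362 CPM in vehicle.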
